A study of Mus musculus with 4 samples.

Results

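The T cell receptor genes were read in sorted liver macrophages of C57BL6J mice aged 8 weeks, in 3 libraries of Cxcr4+ macrophages from mice injected intraperitoneally with acetaminophen (APAP, 300 mg/kg) in saline 72 h earlier, and in 1 library of control macrophages. Acetaminophen in excess injures hepatocytes, and whether the control mice were given saline is not stated. The cells of both groups were sorted by flow cytometry and the libraries were made by the Tecan universal plus mRNA-seq method. The members are all rows of the count table whose mouse symbol names a variable segment or a constant region of the alpha, beta, gamma or delta chain, which gave 151 of 29247 gene IDs. The rule uses names and no values, and gave 8 constant regions and 143 variable segments. The variable segments were 99 of the alpha chain, 10 that the name gives to alpha and delta alike, 23 of beta, 4 of delta and 7 of gamma. Sorting on Cxcr4 is labelled for the APAP cells alone and the control gate is not described, so the drug and the sort cannot be told apart. No label ties the 3 APAP libraries to separate animals, and p-values then measure only how far these samples spread, which may be technical. APAP libraries are numbered 1 to 3 by their place in the table, whose columns carry no number of the labels.

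T cells recognise antigen through a receptor of 2 chains, alpha with beta or gamma with delta. Each chain is encoded by a variable segment joined by DNA recombination to a joining segment, with a diversity segment between them in beta and delta, and then spliced to a constant region. A constant region is shared by many rearranged chains of its locus (in gamma, by those of its own cluster), while each chain carries a single variable segment. Unrearranged loci can be transcribed too, so a read does not by itself show a rearranged chain. The liver of mice is rich in unconventional T cells. Invariant natural killer T cells carry an alpha chain made with Trav11 or its copy Trav11d, and their beta chains mostly use Trbv13, Trbv29 or Trbv1. Rearrangement of these loci is known as a property of lymphocytes and not of macrophages. In bulk RNA, more cells of a type and more RNA per cell cannot be told apart.

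Some members are so alike that a read cannot always be given to a single one, and this bears on every count that follows. The coding bases below come from the GENCODE M21 transcripts (build GRCm38), matched by gene ID, and are used for letters only, because the counts were made on mm39. Trav11 is shown beside Trav11n because Trav11 carries the invariant alpha chain and Trav11n took almost no reads. The first 300 coding bases are given, capitals mark the 8 bases that differ between them, and Trav11d has the same letters as Trav11.
Trav11: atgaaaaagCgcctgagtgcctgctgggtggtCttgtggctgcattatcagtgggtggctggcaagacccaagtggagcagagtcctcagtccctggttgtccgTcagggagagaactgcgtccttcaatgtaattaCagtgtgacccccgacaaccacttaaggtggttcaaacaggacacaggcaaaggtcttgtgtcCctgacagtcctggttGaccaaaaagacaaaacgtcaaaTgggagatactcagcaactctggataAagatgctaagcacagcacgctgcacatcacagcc
Trav11n: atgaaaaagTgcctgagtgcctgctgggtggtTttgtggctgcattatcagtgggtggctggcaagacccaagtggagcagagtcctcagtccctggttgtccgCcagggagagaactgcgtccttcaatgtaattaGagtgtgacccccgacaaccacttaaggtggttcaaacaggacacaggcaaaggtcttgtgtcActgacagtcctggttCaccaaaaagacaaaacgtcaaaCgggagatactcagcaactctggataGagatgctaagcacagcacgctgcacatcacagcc
Trav11 and Trav11d can therefore be read only as a sum, while Trav11n had 0, 0 and 2 reads in APAP libraries and 0 in control cells. Both beta constant regions share 495 of 518 aligned coding bases (95.56%), and 20 of the 23 that differ lie in the stretch from base 361 to base 510, shown here with those bases in capitals.
Trbc1: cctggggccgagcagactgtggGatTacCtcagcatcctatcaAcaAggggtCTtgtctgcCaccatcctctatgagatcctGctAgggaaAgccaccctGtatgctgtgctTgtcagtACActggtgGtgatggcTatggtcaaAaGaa
Trbc2: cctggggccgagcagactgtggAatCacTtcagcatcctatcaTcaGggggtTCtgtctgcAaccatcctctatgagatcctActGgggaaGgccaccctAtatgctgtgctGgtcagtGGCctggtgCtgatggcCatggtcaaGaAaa
Over all variable segments, 40 of 143 were identical to another member over the aligned bases and 80 of 143 were at least 97% identical to one. All 80 were alpha or shared segments (80 of 109), against 0 of 23 beta segments, so single beta segments can be told apart by their letters where many single alpha segments cannot. How the submitters treated reads that fit several segments is not given in the sources used here.

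Members took 3221, 3945 and 3445 reads in APAP libraries and 1470 reads in control cells. Total counts were 48282283, 52043418 and 56702837 in APAP libraries and 49950909 in control cells, so members made up 66.7, 75.8 and 60.8 reads of each 1000000 in APAP libraries and 29.4 in control cells. On the scale of counts per 1000000 with trimmed mean of M-values factors (TMM CPM), the members summed to 65.4 ± 7.42 (SD, n = 3) in APAP Cxcr4+ macrophages and 32.7 in control macrophages. The control has no replicate, and its exact Poisson 95% interval of 31.1 to 34.4 covers counting error only. Levels of the 8 macrophage markers summed to between 20104 and 25259 CPM in APAP libraries and 40796 CPM in control cells, and 1 of the 8 was higher and 5 were lower, with none at 0 in control cells. They were far above the markers of lymphocytes in all 4 libraries. T cell markers were measured beside them: 8 of 10 were higher in the APAP group, none was at 0 in control cells, 4 of the 10 are the CD3 and zeta genes described further on, and their sum was 95.2 to 128 CPM in APAP libraries and 46.2 CPM in control cells. Among all genes tested, 25.4% were higher and 18.9% lower in the test described next. The part of T cell content in the results on the receptor genes was not tested.

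In edgeR's quasi-likelihood test over all genes, 35 of the 151 members had enough reads to be tested, 13 were higher in APAP Cxcr4+ macrophages at an adjusted p below 0.05, 0 were lower and 22 did not pass. Among all 18715 genes tested, 25.4% were higher and 18.9% lower. At an unadjusted p under 0.05, edgeR likewise gave no member that was lower, and neither did DESeq2 or limma-voom at the adjusted threshold. A segment needs about 10 reads in a single library to be tested. Of the 35, 16 had at least 10 control reads, and the others entered through APAP libraries alone. Among those with at least 10 were 7 constant regions, of which 5 were higher, and 9 variable segments, of which none was higher. All 8 variable segments that were higher thus entered through APAP libraries alone. Of the 12 with 0 control reads, 6 were higher, against 62% of all tested genes with 0 control reads. Of the 23 with control reads, 7 were higher, against 22.2% of such genes. Some of these 23 also entered through APAP libraries alone. The median log2 change was 0.84 over the 7 tested constant regions, beside 0.08 over all genes tested. It was 0.95 over the 16 tested segments with control reads, of which 9 had at least 10. Without APAP library 2 fewer calls were made, both in members and over all genes. Then 4 members were higher (Trav13-4-dv7, Trav14n-3, Trbv29 and Trdc), and the share of all genes called higher was 16.2%. Libraries 1 and 3, left in that fit, were the most unlike pair of APAP libraries (chi-square over its degrees of freedom 56.7, against 34.0 and 16.5). Among the 23 tested members with control reads, the control lay below all 3 APAP libraries for 19 and within their range for 4, and it lay below them for 41.3% of all tested genes with control reads (45.7% of all genes tested). The control lay above all 3 APAP libraries for 8 variable segments, all with under 10 reads in each library and none tested.

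All 3 constant regions of the alpha-beta receptor were higher in APAP Cxcr4+ macrophages, by less than 1 on the log2 scale. A log2 change is here the fitted log2 fold change of APAP Cxcr4+ over control macrophages. Trac, the constant region of every alpha chain, had 768, 940 and 779 reads in APAP libraries, against 410 reads in control cells. Its level was 15.4 ± 2.10 CPM in the APAP group (SD, n = 3) and 9.12 CPM in control cells, with a log2 change of 0.75 (SE 0.20, adjusted p = 0.0264). Trbc1 had 404, 596 and 488 reads in APAP libraries and 241 in control cells, with a log2 change of 0.77 (SE 0.25, adjusted p = 0.0485). Trbc2, its near copy, had 798, 895 and 737 reads in APAP libraries and 372 in control cells, with a log2 change of 0.86 (SE 0.21, adjusted p = 0.0205). For each of the 3, every APAP library lay above the control. Without APAP library 2 none of the 3 passed the test (log2 changes of 0.65, 0.61 and 0.78), and Trbc1 did not pass with limma-voom (adjusted p = 0.0737), with upper-quartile factors (adjusted p = 0.0512) or with a minimum of 5 CPM (adjusted p = 0.0526).

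Of the gamma-delta constant regions, Trdc and Tcrg-C2 were higher in APAP Cxcr4+ macrophages, while Tcrg-C1 and Tcrg-C4 did not pass the test. Trdc, the only constant region of the delta chain, had 51, 107 and 70 reads in APAP Cxcr4+ macrophages and 10 reads in control macrophages, with a log2 change of 2.64 (SE 0.62, adjusted p = 0.0186). Tcrg-C2 had 91, 152 and 157 reads in APAP libraries and 33 in control cells, and was higher by 1.73 on the log2 scale (SE 0.40, adjusted p = 0.0175). Both had every APAP library above the control. Trdc did not pass with limma-voom (log2 change 2.53, adjusted p = 0.0543), and Tcrg-C2 did not pass without APAP library 2 (log2 change 1.61). The fitted trend of fold changes over transcript length was 0.52 on the log2 scale at Trdc, the highest of the members, and -0.13 at Trac. After correction for this trend Trdc was still higher. Tcrg-C1 had 63, 141 and 151 reads in APAP libraries and 54 in control cells (log2 change 0.84, adjusted p = 0.213), and APAP library 1 lay close to the control. It passed without APAP library 1 (log2 change 1.11). Tcrg-C4 had 62, 88 and 106 reads in APAP libraries and 50 in control cells (log2 change 0.49, adjusted p = 0.297). For both, every APAP library lay above the control in CPM. Tcrg-C3 had 7, 3 and 2 reads in APAP libraries, against 0 in control cells, and was too low to test. Tcrg-C1 and Tcrg-C2 are 97.4% identical over their coding bases and Tcrg-C1 and Tcrg-C3 96.89%, so reads may have been split among the 3, while Tcrg-C4 shares 78.71% with Tcrg-C1. Whether the fold change of Trdc differs from that of Trac was not tested. Constant-region transcripts of gamma and delta are also known from natural killer and other innate lymphoid cells. Of the 10 natural killer cell markers, 6 were higher, beside 25.4% of all genes tested. Their sums were 32.7 to 47.2 CPM in APAP libraries and 14.3 CPM in control cells, with Klra4 at 0 in control cells. Their part in these values was not tested.

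**Figure D1:**
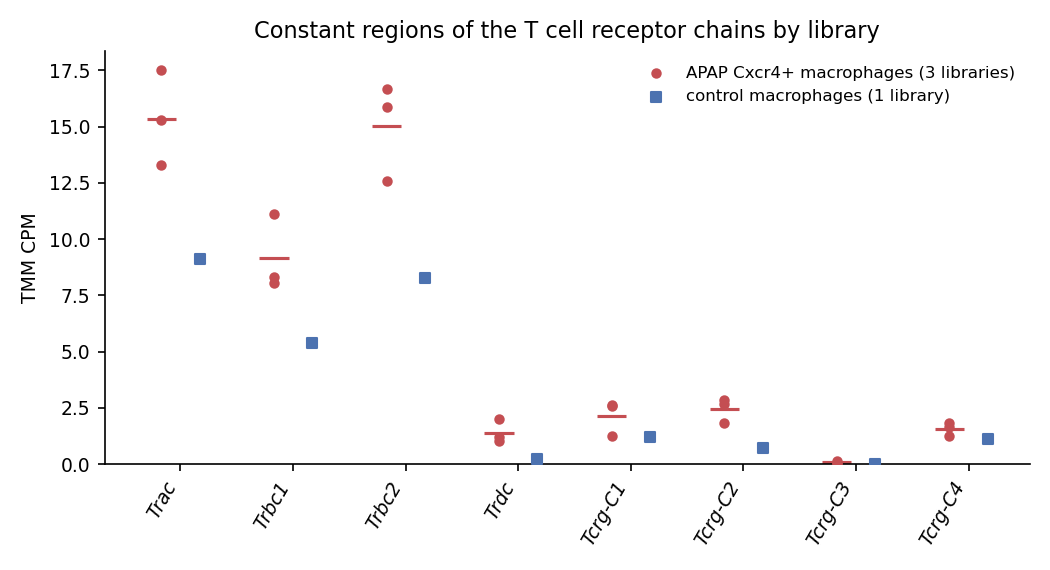
Levels of the 8 constant regions in TMM CPM. Circles are the 3 APAP Cxcr4+ libraries with a line at their mean, and squares are the single control library. Every APAP library lies above the control for all 7 constant regions that could be tested, and 5 of them passed the test. Of all genes tested, 45.7% had the control below all 3 APAP libraries and 25.4% were higher by the test.

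Alpha-beta constant regions took most constant-region reads in both groups. Their share was 87.8%, 83.2% and 80.5% in APAP libraries (83.8% ± 3.69, SD, n = 3) and 87.4% in control cells (Wilson 95% interval 85.4% to 89.2%), so the control fell inside the APAP range. In variable-segment reads, with the shared segments counted as alpha, the share was 92.2%, 89.4% and 89.7% in APAP libraries and 89.7% in control cells. With the shared segments counted as delta it was 82.6%, 83.3% and 83.1% in APAP libraries and 87.0% in control cells (Wilson interval 82.7% to 90.3%), so every APAP library then lay below the control. These are shares of reads, not of cells, and transcripts of different length give different numbers of reads. Within the pair of alpha and delta constant regions, Trdc held 6.23%, 10.2% and 8.24% of the reads in APAP libraries. It held 2.38% in control cells (Wilson interval 1.30% to 4.33%), below every APAP library. This share is not corrected for the trend over transcript length, which was 0.52 on the log2 scale at Trdc and -0.13 at Trac. The part of that trend in the share was not tested. Tcrg-C2 held 40.8%, 39.6% and 37.7% of gamma constant reads in APAP libraries and 24.1% in control cells (interval 17.7% to 31.9%). With a single control library these shares carry no test.

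Most variable segments had reads in each APAP library, and far fewer in the control. Reads fell on 103, 101 and 99 of the 143 segments in APAP libraries, and on 32 in control cells. Of the 143, 130 had a read in at least 1 APAP library, 68 had reads in all 3, 12 had no read in any library, and 1, Trav13-3, had its only read in control cells. By locus, alpha segments with reads numbered 67, 62 and 62 of 99 in APAP libraries and 18 in control cells, and shared alpha or delta segments 9, 9 and 9 of 10 in APAP libraries and 1 in control cells. Beta segments with reads numbered 20, 21 and 20 of 23 in APAP libraries and 11 in control cells. Gamma segments numbered 4, 6 and 6 of 7 in APAP libraries and 2 in control cells, and delta segments 3, 3 and 2 of 4 in APAP libraries and 0 in control cells. The order held with a minimum of 3 reads, with 73, 72 and 63 segments in APAP libraries and 21 in control cells, and of 10 reads, with 26, 24 and 23 in APAP libraries and 9 in control cells.

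The gap was also there at equal numbers of variable reads. The control had 300 variable reads, and APAP libraries, when thinned to 300 variable reads, would be expected to show 75.8, 73.7 and 70.1 segments, against 32 in control cells. The inverse Simpson number, which gives the count of equally used segments that would be as varied, was 34.9, 26.8 and 27.0 in APAP libraries and 14.7 in control cells. The control was also sparser in weakly read genes of every kind: 23376 to 23880 genes had reads in APAP libraries and 18793 in control cells, and 831 to 920 genes had exactly 1 read in APAP libraries and 269 in control cells. Among genes averaging above 1 and up to 3 reads in APAP libraries, the control had no read for 83.3% of 36 variable segments and for 80.1% of 3067 genes of any kind. In the band from 3 to 10 reads it had none for 86.8% of 38 segments and for 58.9% of 3272 genes, and from 10 to 30 reads for 47.1% of 17 segments and 28.0% of 2560 genes. Within the APAP group, segments that averaged 3 to 10 reads in the other libraries were at 0 for 11.8%, 17.9% and 19.5% in libraries 1, 2 and 3, and genes of any kind for 15.4%, 11.4% and 9.87%. Among genes averaging above 1 and up to 3 APAP reads, those read in control cells had a median of 4 control reads. For such variable segments it was 1.5. Thinning and the inverse Simpson number take each read as an independent draw, which was not tested. Neither can then show how varied the segments in the cells were. The part of the control's general sparseness in the number of segments was not tested.

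**Figure D2:**
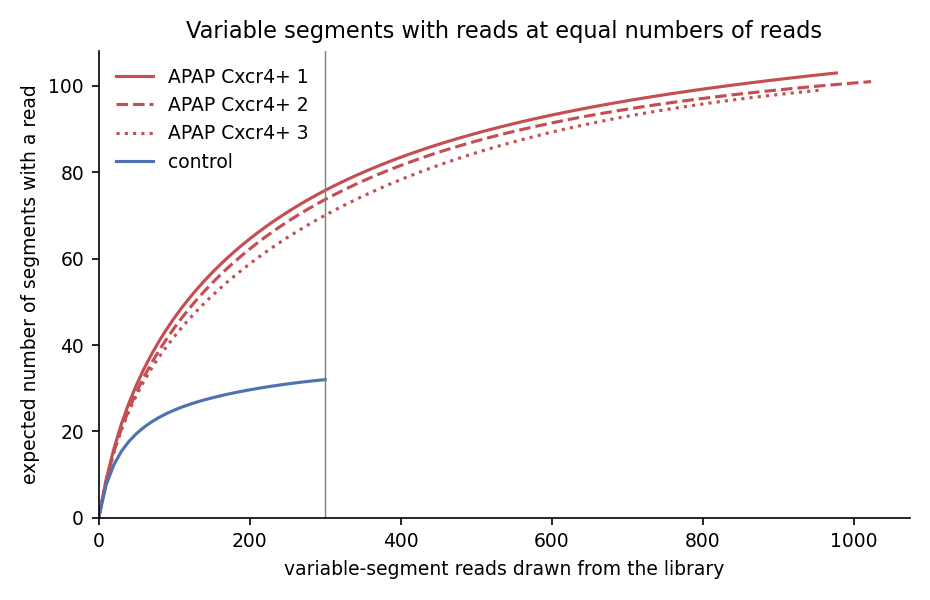
Expected number of variable segments with a read (vertical axis) when a given number of variable reads (horizontal axis) is drawn from each library. Red lines are the 3 APAP Cxcr4+ libraries and the blue line is the control, which ends at its 300 reads (grey line) with 32 segments, where APAP libraries stand at 70.1 to 75.8.

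Summed over each locus, variable reads were more abundant in APAP Cxcr4+ macrophages. Alpha and shared segments took 462, 401 and 394 reads in APAP libraries and 101 reads in control cells, or 7.79 ± 1.27 CPM (SD, n = 3) and 2.25 CPM (Poisson interval 1.83 to 2.73). Beta segments took 439, 514 and 463 reads in APAP libraries and 168 in control cells, or 8.74 ± 0.834 CPM and 3.74 CPM (interval 3.19 to 4.35). Gamma segments took 67, 96 and 94 reads in APAP libraries and 31 in control cells, or 1.57 ± 0.228 CPM and 0.690 CPM (interval 0.469 to 0.979). Delta segments took 9, 12 and 4 reads in APAP libraries and 0 in control cells, at least 2.35-fold higher against a floor of 3 reads in the control library. Alpha variable reads per Trac read were 0.602, 0.427 and 0.506 in APAP libraries and 0.246 in control cells, whereas beta variable reads per beta constant read were 0.365, 0.345 and 0.378 in APAP libraries and 0.274 in control cells. For gamma the ratio was 0.30, 0.250 and 0.226 in APAP libraries and 0.226 in control cells, so there the groups met.

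Among beta segments, which are more distinct in sequence than alpha segments, 15 of 23 could be tested. Of these, 4 were higher (26.7%, near the 25.4% of all genes) and 0 lower. All 4 had fewer than 10 control reads. Trbv29, a segment known from natural killer T cells among others, had 58, 36 and 54 reads in APAP libraries and 7 in control cells, with a log2 change of 2.53 (SE 0.59, adjusted p = 0.0190). Trbv12-2 had 14, 38 and 24 reads in APAP libraries and 2 in control cells (log2 change 3.32, SE 1.01, adjusted p = 0.0426), and did not pass without APAP library 2 (log2 change 2.89) or with limma-voom (adjusted p = 0.0967). In both, every APAP library lay above the control. Trbv14 had 10, 16 and 10 reads in APAP libraries and 0 in control cells, at least 3.33-fold higher (adjusted p = 0.0311). Trbv31 had 22, 11 and 9 reads in APAP libraries and 0 in control cells, at least 3.98-fold higher (adjusted p = 0.0415). Neither of these passed without APAP library 2, nor Trbv31 without APAP library 1 or with limma-voom.

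The beta segment with most reads in every library, Trbv13-2, missed the threshold. It had 80, 126 and 110 reads in APAP libraries and 41 in control cells (log2 change 1.09, SE 0.36, adjusted p = 0.0536). It passed without APAP library 1, without the count filter and after a correction for transcript length (log2 changes of 1.21, 1.12 and 1.5). Its relatives Trbv13-1, with 42, 56 and 39 reads in APAP libraries and 17 in control cells, and Trbv13-3, with 44, 54 and 40 in APAP libraries and 22 in control cells, did not pass (log2 changes 1.16 and 0.80). Trbv1 had 26, 42 and 55 reads in APAP libraries and 38 in control cells (log2 change -0.18, SE 0.46, adjusted p = 0.774), with the control between APAP libraries 2 and 3 in CPM. Trbv17, with 10, 15 and 26 reads in APAP libraries and 14 in control cells, and Trbv19, with 20, 10 and 8 reads in APAP libraries and 11 in control cells, also had the control inside the APAP range.

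**Figure D3:**
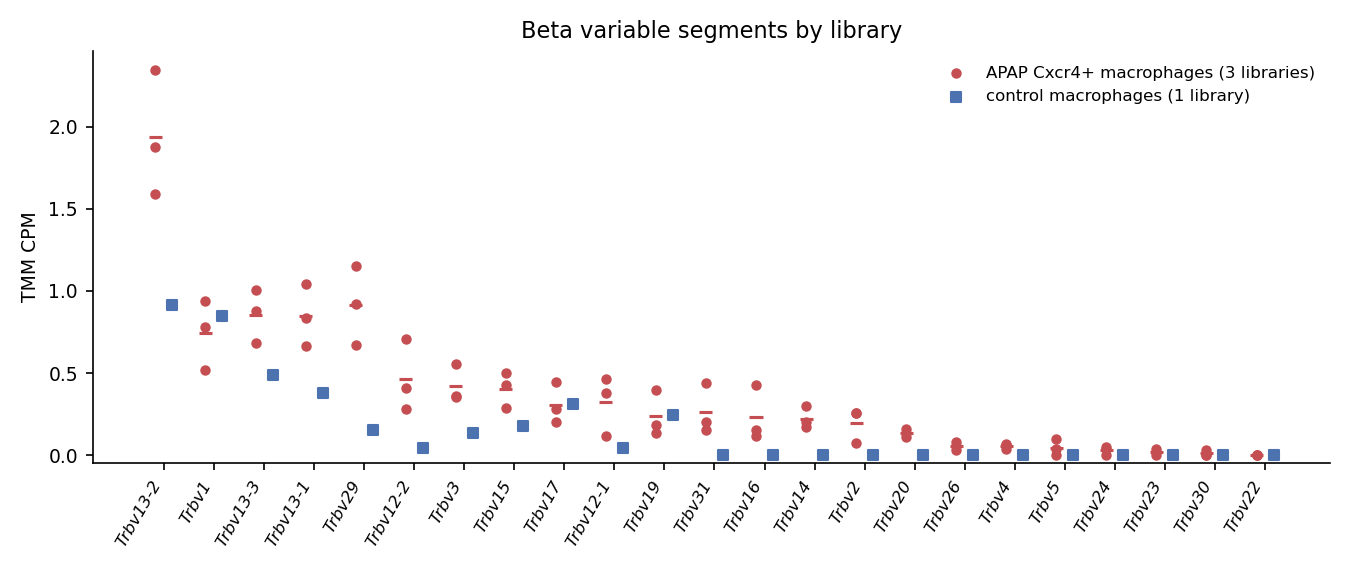
Levels of the 23 beta variable segments in TMM CPM, ordered by their mean over the 4 libraries. Circles are the 3 APAP Cxcr4+ libraries with a line at their mean, and squares are the single control library. Trbv13-2 is highest in every library, the control square of Trbv1 lies among the APAP circles, and 12 segments have their control square at 0.

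The invariant alpha segment did not pass the test in level, and held a smaller share of alpha variable reads in APAP libraries. Trav11 had 19, 39 and 32 reads in APAP libraries and 22 in control cells (log2 change 0.17, adjusted p = 0.816), and its identical copy Trav11d had 23, 38 and 32 reads in APAP libraries and 16 in control cells (log2 change 0.68, adjusted p = 0.320). Together with Trav11n they made 1.13 ± 0.299 CPM in the APAP group and 0.846 CPM in control cells (Poisson interval 0.598 to 1.16), so the APAP mean lay inside the counting interval of the control. As a share of alpha and shared variable reads they held 9.09%, 19.2% and 16.8% in APAP libraries and 37.6% in control cells (38 of 101 reads, Wilson interval 28.8% to 47.4%). The control's interval lies above the highest APAP interval, which ends at 23.3%. The reads that this share is taken of were themselves fewer in control cells. Alpha and shared variable reads per Trac read were 0.246 there and 0.602, 0.427 and 0.506 in APAP libraries. The part of this in the share was not tested. Trav1, the segment of mucosal-associated invariant T cells, had 2, 0 and 0 reads in APAP libraries and 0 in control cells.

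In the other alpha families, segments lay on both sides. The control was above all APAP libraries for Trav7-6, with 3, 0 and 0 reads in APAP libraries and 9 in control cells, and for Trav14n-2, with 2, 6 and 3 reads in APAP libraries and 8 in control cells. Trav21-dv12 had 4, 4 and 2 reads in APAP libraries and 8 in control cells. These were too low to test and are named after their values were seen. Other segments were read in every APAP library and had no read in control cells. Trav13-4-dv7, which alpha and delta chains can both use, had 32, 25 and 37 reads in APAP libraries and 0 in control cells, at least 8.66-fold higher (adjusted p = 0.00569). Trav14n-3 had 40, 15 and 32 reads in APAP libraries and 0 in control cells, at least 8.10-fold higher (adjusted p = 0.0174). Trav14-3 had 9, 15 and 22 reads in APAP libraries and 0 in control cells, at least 4.16-fold higher (adjusted p = 0.0254), and did not pass without APAP library 2. Trav14d-3-dv8, another shared segment, had 38, 12 and 11 reads in APAP libraries and 0 in control cells and missed the threshold (adjusted p = 0.0513). It passed with DESeq2 (adjusted p = 0.0172), with DESeq2's size factors, with upper-quartile factors and without the count filter. It also passed after the correction for transcript length, without APAP library 1 and without APAP library 3. With limma-voom and without APAP library 2 it did not pass. These 3 Trav14 segments are 96.68% to 97.23% identical, and as a sum they had 87, 42 and 65 reads in APAP libraries and 0 in control cells, at least 18.1-fold higher, a sum chosen for its 0 in the control. The whole Trav14 family had 107, 70 and 86 reads in APAP libraries and 10 in control cells, a 7.34-fold ratio of summed CPM, and held 23.2%, 17.5% and 21.8% of alpha and shared variable reads in APAP libraries and 9.90% in control cells (interval 5.47% to 17.3%), whose interval meets that of APAP library 2. Trav13n-4 had 24, 14 and 28 reads in APAP libraries and 6 in control cells, and Trav12-2 had 14, 9 and 5 in APAP libraries and 0 in control cells. Neither passed the test.

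Shares of beta families differed in both directions. Trbv1 held 5.92%, 8.17% and 11.9% of beta variable reads in APAP libraries and 22.6% in control cells (interval 17.0% to 29.5%). Trbv29 held 13.2%, 7.0% and 11.7% in APAP libraries and 4.17% in control cells (interval 2.03% to 8.35%), and Trbv12 held 7.52%, 12.3% and 6.70% in APAP libraries and 2.38% in control cells (interval 0.930% to 5.96%). The Trbv13 family held 37.8%, 45.9% and 40.8% in APAP libraries and 47.6% in control cells (interval 40.2% to 55.1%). The control's interval met those of all 3 APAP libraries for Trbv13, that of APAP library 2 for Trbv29, those of APAP libraries 1 and 3 for Trbv12, and none for Trbv1. The 5 segments with most control reads, a choice made on the control itself, held 22.1%, 31.6% and 29.9% of all variable reads in APAP libraries and 49.3% in control cells.

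**Figure D4:**
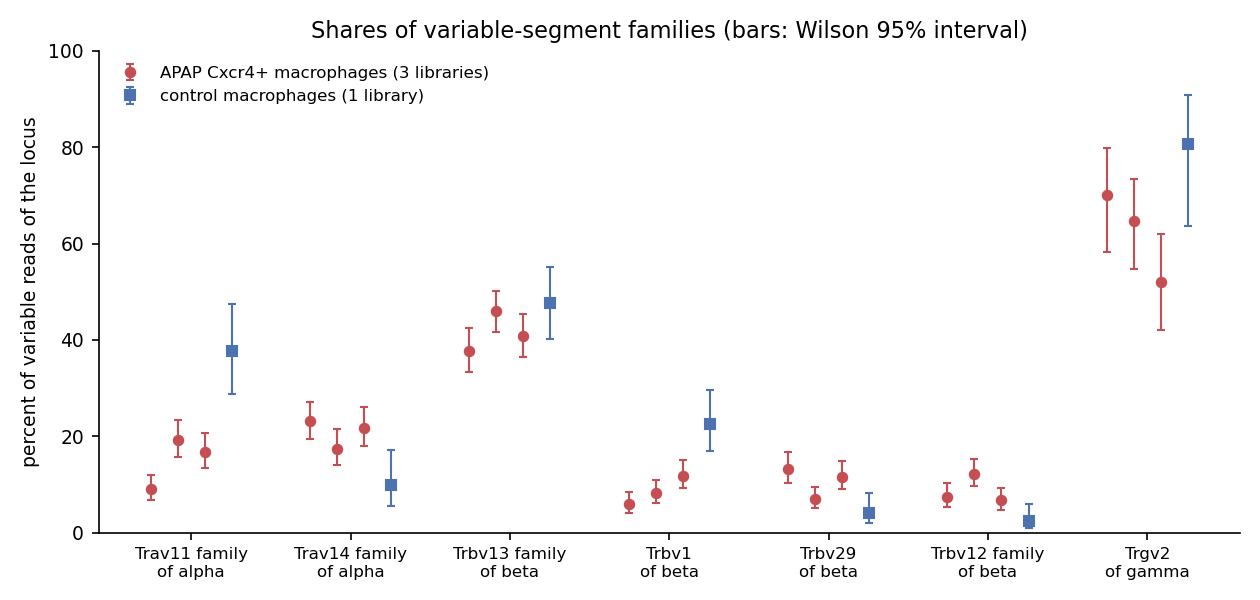
Share of the variable reads of a locus held by selected families, in percent. Circles are the 3 APAP Cxcr4+ libraries, squares the control, and bars Wilson 95% intervals of the reads. The APAP libraries stand below the control for the Trav11 family (9.09% to 19.2%, against 37.6%) and for Trbv1 (5.92% to 11.9%, against 22.6%). They also stand below it for the Trbv13 family (37.8% to 45.9%, against 47.6%) and Trgv2 (52.1% to 70.1%, against 80.6%). There the control's interval meets those of all 3 APAP libraries for Trbv13, and those of APAP libraries 1 and 2 for Trgv2. They stand above it for Trav14, Trbv29 and Trbv12.

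Gamma segments were few and lay mostly on Trgv2. It had 47, 62 and 49 reads in APAP libraries and 25 in control cells (log2 change 0.81, SE 0.41, adjusted p = 0.157), and Tcrg-V1 had 11, 9 and 14 reads in APAP libraries and 6 in control cells (adjusted p = 0.530). Their coding bases are 95.68% identical. Tcrg-V4, known from gamma-delta T cells that make interleukin 17, had 8, 13 and 20 reads in APAP libraries and 0 in control cells, at least 3.71-fold higher (adjusted p = 0.0305), a call lost without APAP library 2. Tcrg-V5, the segment of gamma-delta T cells of the mouse epidermis, had 0, 8 and 5 reads in APAP libraries and 0 in control cells, Tcrg-V6 had 0, 1 and 0 and Tcrg-V7 had 0, 0 and 4 in APAP libraries, both with 0 in control cells. The 4 segments that lie in the cluster of Tcrg-C1 summed to 8, 22 and 29 reads in APAP libraries and 0 in control cells, although Tcrg-C1 itself had 54 control reads. Of the delta segments, Trdv4 had 6, 6 and 3 reads in APAP libraries, Trdv5 had 1, 4 and 0, Trdv2-2 had 0, 2 and 1 and Trdv1 had 2, 0 and 0. All 4 were at 0 in control cells, where 0 reads allow a level of up to 0.0668 CPM.

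The partner chains of the receptor were measured as a list. Products of the 4 CD3 and zeta genes carry the receptor to the surface and signal for it. Of these genes 2 were higher and 0 were lower, beside 25.4% and 18.9% of all genes tested. The median log2 change was 0.66, beside 0.08 over all genes tested. Cd3g was higher by 0.73 (SE 0.21, adjusted p = 0.0347), though not without APAP library 2 (0.61) or with limma-voom (0.72), and Cd247, the zeta chain that natural killer cells use as well, by 1.77 (SE 0.28, adjusted p = 0.00520). Cd3e had 716, 839 and 689 reads in APAP libraries and 415 in control cells (log2 change 0.59, adjusted p = 0.0590), and Cd3d had 295, 290 and 314 reads in APAP libraries and 167 in control cells (log2 change 0.58, adjusted p = 0.0560). Neither passed, though every APAP library lay above the control. Cd3d passed after the correction for transcript length (log2 change 0.98), and Cd3e after it, with DESeq2, without the count filter and without APAP library 3 (log2 changes of 0.59 to 0.71). Reads of Trac per read of Cd3e were 1.07, 1.12 and 1.13 in APAP libraries and 0.988 in control cells. Reads of Trdc per read of Cd3e were 0.0712, 0.128 and 0.102 in APAP libraries and 0.0241 in control cells. Neither ratio is corrected for the trend over transcript length.

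Both CD8 genes were higher in APAP Cxcr4+ macrophages and Cd4 did not pass the test; these coreceptors bind MHC molecules beside the alpha-beta receptor. Cd8a had 771, 550 and 381 reads in APAP libraries and 48 in control cells, with a log2 change of 3.32 (SE 0.59, adjusted p = 0.00765), and Cd8b1 had 541, 474 and 344 reads in APAP libraries and 103 in control cells, with a log2 change of 1.89 (SE 0.39, adjusted p = 0.0131). Cd4, which some dendritic cells and macrophages also express, had 1167, 1446 and 1189 reads in APAP libraries and 1108 in control cells (log2 change -0.07, SE 0.17, adjusted p = 0.758). Cd8a is also known from dendritic cells. Whether Cd8a and Cd4 differ in their fold change was not tested.

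**Figure D5:**
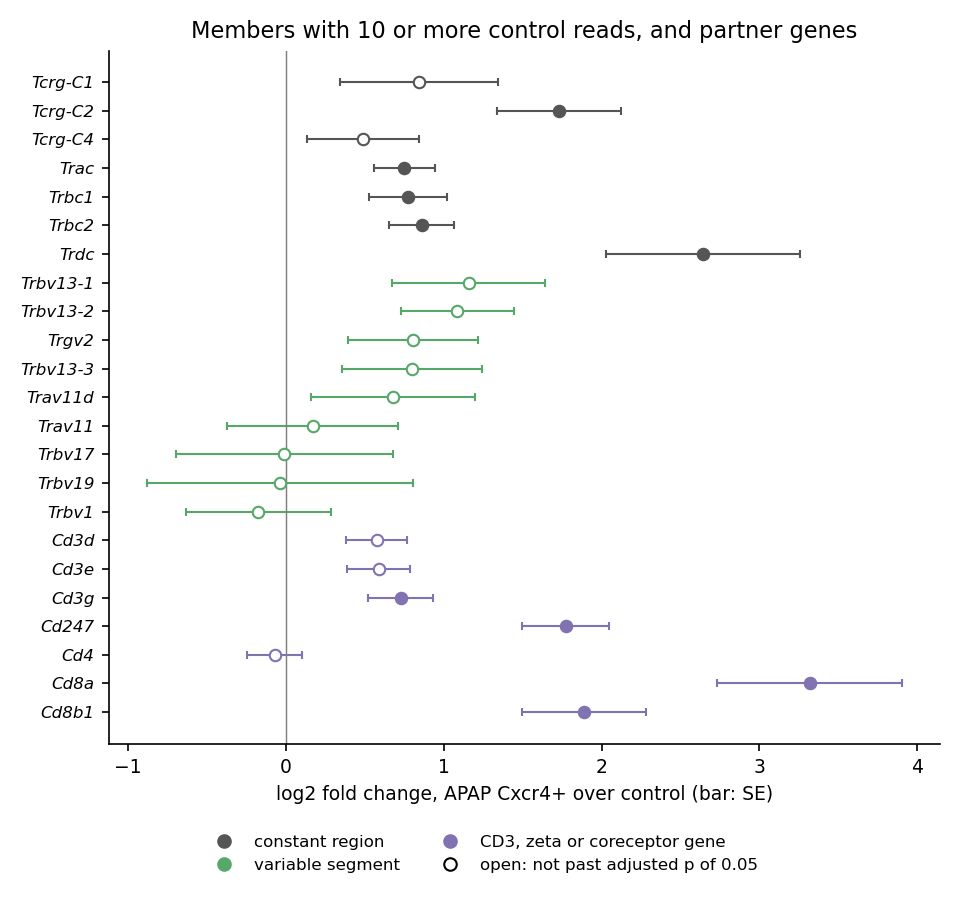
Log2 fold change of APAP Cxcr4+ over control macrophages with its standard error, for the 16 members with at least 10 control reads and for CD3, zeta and coreceptor genes. Filled points passed an adjusted p of 0.05. Trac, Trbc1 and Trbc2 stand at 0.75 to 0.86, Trdc at 2.64, and Trav11, Trbv1, Trbv17 and Trbv19 close to 0.

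Of 17 genes of proximal receptor signalling, 13 were higher and 2 lower, beside 25.4% and 18.9% of all genes tested. Their median was 1.51, and those higher included the kinase Lck (1.55), the adaptor Grap2 (2.51) and the costimulator Cd28 (2.28). The 2 that were lower, Lcp2 and Prkcq, are also expressed outside T cells, and were named after their values were seen (log2 changes -0.46 and -0.69). Among 8 transcription factors of alpha-beta T cells, 6 were higher and 0 lower (median 1.28), with Runx3 at 2.48, Tcf7 at 2.40, Lef1 at 1.39 and Satb1 at 1.01, the last of which did not pass after the correction for transcript length (0.52). These are known from other lymphocytes too, and all 8 B cell markers were higher as well, with sums of 229 to 310 CPM in APAP libraries and 44.4 CPM in control cells and Cr2 at 0 in control cells.

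Of 13 listed genes tied to gamma-delta T cells, 9 were in the table and 7 could be tested. Among the 7, 3 were higher and 0 lower (median 1.98), beside 25.4% and 18.9% of all genes tested. Zbtb16, a transcription factor of natural killer T cells and other innate-like lymphocytes, had 293, 373 and 592 reads in APAP libraries and 56 in control cells (log2 change 2.61, adjusted p = 0.00513). Blk, a kinase shared with B cells, was higher by 3.03 (adjusted p = 0.00254), and 5830411N06Rik, with 10, 17 and 20 reads in APAP libraries and 0 in control cells, was at least 4.28-fold higher (adjusted p = 0.0209), a call lost without APAP library 2. Sox13 (-0.06), Maf (-0.09) and Cd163l1 (1.98) did not pass, though Maf was lower after the correction for transcript length (-0.71). Il23r had 0, 0 and 4 reads in APAP libraries and Il17f 2, 0 and 0, each with 0 in control cells.

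Genes of the recombination machinery were mostly near 0. Rag1, a subunit of the recombinase, had 2, 1 and 0 reads in APAP libraries and 0 in control cells, Rag2 had none in any library, and Ptcra, which pairs with the beta chain in the thymus, had 2, 0 and 0 in APAP libraries and 0 in control cells. Dntt, the terminal transferase that adds bases at the joints in precursors of T and B cells, had 103, 56 and 109 reads in APAP libraries and 0 in control cells and was at least 24.7-fold higher (adjusted p = 0.00347). Of 4 genes beside the receptor loci that could be tested, 0 were higher and 2 were lower, with a median of -0.73. The shares over all genes tested were 25.4% higher and 18.9% lower. Dad1, next to the alpha and delta constant regions, had 2616, 2260 and 2524 reads in APAP libraries and 3952 in control cells (log2 change -0.94, adjusted p = 0.00417). Stard3nl, next to the gamma locus, had 1405, 1559 and 1848 reads in APAP libraries and 2548 in control cells (log2 change -0.94, adjusted p = 0.00212). Abhd4 (-0.09) and Ephb6 (-0.53), which lies beside the beta locus, did not pass.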

How the data were processed

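Messenger RNA libraries of 4 sorted samples were analysed. The deposited values are raw read counts per Ensembl gene. HISAT2, Subread and build mm39 are named in the submitters' processing notes. Their roles and versions, the annotation, the strand setting and the treatment of shared reads are not stated. Symbols were matched for 98.9% of the IDs. Tests used edgeR 4.0.16 under R 4.3.3 (filterByExpr with minimum count 10 and minimum total 15, TMM factors, quasi-likelihood F test, Benjamini-Hochberg adjustment over 18715 genes, called at 0.05). The control is a single library, so the spread is that of the APAP libraries (2 residual and 3.80 prior degrees of freedom) and is taken to hold for the control. The test was checked on simulated counts. DESeq2 1.42.0, limma-voom (limma 3.58.1), other factors and filters, each APAP library left out, and a correction for the trend of fold changes over transcript length were alternatives. Identities came from global alignments of coding bases. The members, the gene lists and the tests were chosen with earlier results of these data known. Named genes were all constant regions, called segments, the 5 highest segments of each locus, segments of invariant and gamma-delta T cells, all members of the CD3, coreceptor, rearrangement and gamma-delta lists, and the 4 smallest p-values of the other lists. Some genes that this rule names are not reported here. Il17a, Scart1, Scart2, Gm30075, Prss1, Prss3, Try10 and Tarp were listed and are not analysed here. Every pair of libraries differed beyond sampling noise (chi-square over its degrees of freedom, 16.5 to 405). Intervals and floors cover counting error only. They take reads as independent draws, which was not tested, so the folds given as at least a value hold only against that floor. A permutation of 3 libraries against 1 cannot reach 0.05.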

Additional observations from a re-analysis of the deposited data

How the results depend on the processing

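No paired analysis was possible because the control has 1 library and the count columns carry no replicate number. The 13 members that were higher became 2 of 3 tested with a minimum of 5 CPM in a library, 9 with limma-voom, and 4 to 17 when each APAP library was left out. In these fits 28.3%, 22.1% and 16.2% to 28.1% of all genes tested were higher. The 5 constant regions became 2 with the 5 CPM minimum, 3 with limma-voom and 1 to 6 when each APAP library was left out, with 4 of the 13 members keeping the call without APAP library 2. Under the other fits 13 to 16 members were higher and none was lower under any. Without the count filter these were 16 of 139 tested, beside 18.0% of all genes in that fit. In the rest they were 13 to 16 of 35, beside 21.3% to 25.6% of all genes. The 27 of 44 tested partner and context genes that were higher became 20 to 28 of 44 when each APAP library was left out. Under the other fits they were 22 to 29, of 34 to 52 tested. Of 578 single-gene values, 534 kept direction and side of the threshold, 20 lost the call, 24 gained it and 0 turned round. Requiring 3 reads left 21 control segments, and requiring 10 reads left 24.3 segments on average in APAP libraries and 9 in control cells. Leaving out the TMM factors moves all genes by 0.20 on the log2 scale, and the log2 ratio of summed CPM was then 1.43 in place of 1.22 for beta segments and 0.95 in place of 0.75 for Trac. The alpha-beta share, which differed by -3.61 points (APAP minus control) in constant-region reads, had a difference of 0.801 points in variable reads with shared segments as alpha and of -3.99 points with them as delta, and the cause was not tested. Leaving out each APAP library gave -5.60 to -1.94 points. Short transcripts ran lower in APAP libraries (fitted trend -0.40 on the log2 scale at the median tested variable segment). At Trdc the trend was 0.52, the highest of the members. After correction 16 of 35 members were higher, Trdc among them, beside 21.3% of all genes tested. The alternatives of thinning to the control's variable reads, and of leaving shared segments out of the Trav11 share (difference -22.8 points, against -22.6), were chosen after seeing the data. Counts under about 10 reads limit single segments: 0 control reads allow up to 3.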

Other observations

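Joining and diversity segments, which were no members, were read as well, and these values were looked up after the main results. Of 14 beta joining segments in the table, 13, 14 and 14 had reads in APAP libraries and 2 in control cells, with 87, 127 and 127 reads in APAP libraries and 8 in control cells. In the edgeR fit 8 of them could be tested, 5 were higher and 0 lower. All 5 were among the 7 with 0 control reads, beside 62% of all tested genes with 0 control reads, a share fixed in part by the filter. Trbj1-2 had 10, 12 and 14 reads in APAP libraries and 0 in control cells, at least 3.30-fold higher. Of 37 alpha joining segments, 21, 16 and 19 had reads in APAP libraries and 0 in control cells, with 56, 32 and 31 reads in APAP libraries. Traj18, the joining segment of invariant natural killer T cells, had 0, 0 and 1 read in APAP libraries and 0 in control cells, although Trav11 and Trav11d together had 42, 77 and 64 reads in APAP libraries and 38 in control cells. The diversity segment Trbd1 had 6, 10 and 12 reads in APAP libraries and 13 in control cells, and Trbd2 had 15, 4 and 7 in APAP libraries and 3 in control cells. Neither passed the test.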
